A study of Homo sapiens with 36 samples.

Results

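The 10 genes described here encode core parts and loaders of the complexes that fold and hold chromosomes: cohesin (SMC1A, SMC3, STAG2 and its loader NIPBL), condensin (SMC2, SMC4, NCAPD2, NCAPD3) and the SMC5/6 complex (SMC5, SMC6). The question was where along their transcripts the RNA-binding proteins SCAF4 and SCAF8 were crosslinked, and whether this differed from control and input RNA. Members were fixed by name, with earlier results of these data known. A cluster, the unit of the data, was given to a gene when its midpoint lay on the same strand and within the gene body of the GENCODE release 44 annotation of GRCh38. Of 278185 clusters in 18 lists, 1436 lay in these 10 genes, which were among 7000 protein-coding genes with at least 5 clusters over all lists.

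SMC proteins are long coiled-coil ATPases that pair into V-shaped dimers and are closed into rings by further subunits. Cohesin tethers sister chromatids and forms loops in interphase, condensin compacts chromosomes for mitosis, and SMC5/6 acts in DNA repair and recombination. SCAF4 and SCAF8 are proteins that bind the phosphorylated C-terminal domain of RNA polymerase II and carry an RNA recognition motif.

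The assay was PAR-CLIP, in which 4-thiouridine taken up into RNA is crosslinked to bound protein by long-wave UV light, and stretches of RNA with T-to-C changes are called as clusters. All cells were HEK293 Flp-in T-REx, an embryonic kidney-derived line in which a transgene sits at a single chromosomal site and is switched on by doxycycline. Per the labels, cells carrying FLAG-SCAF4 or FLAG-SCAF8 received 100 ng/mL doxycycline overnight. The parental cells, which carry no tagged protein, served as control. The study's methods give a higher dose and name parental and tagged cells together, so the dose, and whether the parental cells received doxycycline, are not settled here. All cells received 100 µM 4-thiouridine overnight and 500 µM for a further 2 h before 2000 J/m2 of 365 nm light. For each of the 3 lines, 3 biological replicates gave 1 FLAG immunoprecipitation (IP) list and 1 input list, the input being taken from the same extract before IP, and each list joined the reads of a soluble and a chromatin fraction (36 libraries). The tagged protein is made from a transgene, so binding here is that of added FLAG-SCAF4 or FLAG-SCAF8. In the input lists, clusters in SCAF4 coding exons numbered 15 to 17 in FLAG-SCAF4 cells and at most 3 in the others, and those in SCAF8 coding exons numbered 11 to 16 in FLAG-SCAF8 cells and at most 1 in the others.

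The lists differed in size. SCAF4 IP lists held 18991, 54404 and 33962 clusters, SCAF8 IP lists 25189, 18287 and 41502, control IP lists 9638, 2314 and 1621, and the 9 input lists 4567 to 12493. Values are therefore given as clusters in a gene per 10000 clusters of the list, called the cluster share below. It counts separate crosslinked stretches, not reads, and read depth is unknown. The level of each transcript was not measured in these lists, so binding per molecule cannot be told from the amount of RNA.

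The sequences below show 1 crosslinked region of 7 members and, last, an intronic region that was also present in inputs. The STAG2, NIPBL and SMC5 regions passed the consensus rule described further on, and the others were each removed by a step of it. Each is read 5′ to 3′ along the transcript from GRCh38, with exon bases in capitals and intron bases in lower case. Regions are clusters of the 3 SCAF4 IP and 3 SCAF8 IP lists, together the SCAF IP lists, merged where they overlapped.

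SMC1A exon 14, chrX:53404977-53405150, minus strand, all 6 SCAF IP lists and 2 inputs: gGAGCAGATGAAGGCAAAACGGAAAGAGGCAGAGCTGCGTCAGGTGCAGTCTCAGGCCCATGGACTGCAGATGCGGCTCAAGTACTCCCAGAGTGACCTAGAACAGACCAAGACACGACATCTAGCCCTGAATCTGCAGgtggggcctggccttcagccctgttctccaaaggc
STAG2 exon 33, chrX:124093953-124094140, plus strand, all 6 SCAF IP lists and 1 input: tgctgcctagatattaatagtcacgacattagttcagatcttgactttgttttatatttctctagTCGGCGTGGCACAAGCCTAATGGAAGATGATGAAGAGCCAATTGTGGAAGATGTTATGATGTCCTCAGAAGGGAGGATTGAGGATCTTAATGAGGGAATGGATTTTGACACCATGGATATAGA
NIPBL exon 44, chr5:37058894-37059053, plus strand, 5 SCAF IP lists and 1 input: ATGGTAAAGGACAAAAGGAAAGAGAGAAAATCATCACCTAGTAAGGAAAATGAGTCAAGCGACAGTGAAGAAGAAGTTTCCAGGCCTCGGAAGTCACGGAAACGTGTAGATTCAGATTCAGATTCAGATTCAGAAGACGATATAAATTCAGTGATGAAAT
SMC4 exon 7, chr3:160413471-160413598, plus strand, all 6 SCAF IP lists and 1 input: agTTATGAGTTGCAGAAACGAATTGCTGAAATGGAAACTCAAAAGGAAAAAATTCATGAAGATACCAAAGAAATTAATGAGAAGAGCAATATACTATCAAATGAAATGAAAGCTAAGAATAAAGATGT
NCAPD3 exon 2, chr11:134220543-134220730, minus strand, all 6 SCAF IP lists and 4 inputs: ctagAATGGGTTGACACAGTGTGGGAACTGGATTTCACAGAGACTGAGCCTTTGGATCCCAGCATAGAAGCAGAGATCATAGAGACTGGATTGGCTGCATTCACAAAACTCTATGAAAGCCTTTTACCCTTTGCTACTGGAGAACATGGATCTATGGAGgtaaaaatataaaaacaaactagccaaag
SMC5 exon 7, chr9:70282373-70282611, plus strand, 4 SCAF IP lists and no input: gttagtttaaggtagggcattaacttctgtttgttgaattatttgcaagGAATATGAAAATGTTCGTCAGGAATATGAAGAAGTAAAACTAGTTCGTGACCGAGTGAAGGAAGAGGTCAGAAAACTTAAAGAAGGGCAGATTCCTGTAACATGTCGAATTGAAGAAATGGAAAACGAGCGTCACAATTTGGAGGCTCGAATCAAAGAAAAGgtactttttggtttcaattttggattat
SMC6 exon 11, chr2:17720921-17721036, minus strand, all 6 SCAF IP lists and no input: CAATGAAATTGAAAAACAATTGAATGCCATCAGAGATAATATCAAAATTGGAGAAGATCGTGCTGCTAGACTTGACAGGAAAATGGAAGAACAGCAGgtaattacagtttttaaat
SMC3 intron 2, chr10:110569296-110569455, plus strand, all 6 SCAF IP lists, 7 inputs and 3 control IP lists: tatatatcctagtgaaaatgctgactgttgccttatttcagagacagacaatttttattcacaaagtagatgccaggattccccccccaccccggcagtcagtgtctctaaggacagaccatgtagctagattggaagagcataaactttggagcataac

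Of these stretches, 7 cover a coding exon, and some run over its boundary into the intron. The NIPBL stretch is all exon, and that of SMC4 has 2 intronic bases. In SMC1A it ran through the 5′ splice site, in STAG2 through the 3′ splice site, and in SMC5 through both. From each region 3 stretches of 30 nt were sampled, and all occurred once in the genome.

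Together the 10 genes took 0.441% to 0.547% of the clusters of each SCAF IP list, which is 97 to 245 clusters. As a share, this was 48.4 ± 3.09 per 10000 clusters in SCAF4 IP and 48.9 ± 5.35 in SCAF8 IP (mean ± SD, n = 3). The inputs of the same 2 lines, their own inputs, held 65.3 ± 9.38 and 61.9 ± 4.54, and control IP held 71.9 ± 21.4. SMC1A made up most of the difference from own inputs. Without it, the other 9 genes took 35.9 ± 1.90 per 10000 in the 6 SCAF IP lists and 37.2 ± 3.31 in the 6 inputs, and the ranges overlapped (32.8 to 37.7 against 33.9 to 41.7). In control IP the other 9 genes took 42.6 ± 13.2, with SMC3 and SMC4 also higher there on average than in SCAF IP (11.9 against 4.13, and 11.2 against 6.87), and the range of 29.1 to 55.5 overlapped SCAF IP.

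SMC1A, which encodes an SMC subunit of cohesin, held the most clusters of any member in every list. Its share was 13.7, 8.46 and 11.5 per 10000 in the SCAF4 IP lists and 13.5, 18.05 and 11.3 in the SCAF8 IP lists. In SCAF4 input it was 20.5, 35.2 and 27.1, and in SCAF8 input 23.0, 25.1 and 27.8. Every SCAF IP list lay below every input list. Control IP gave 20.8, 30.3 and 37.0 and control input 21.6, 30.7 and 29.5, and both overlapped the own inputs. The mean fell from 26.4 in own inputs to 12.7 in SCAF IP, a difference of -13.7 (exact permutation test over 924 splits, two-sided, p = 0.00216, adjusted p = 0.0257 over 7000 genes). This test did not keep the pairing of IP and input by replicate. SMC1A was the only member called in it, against 3.86% of all genes called lower and 6.43% called higher. Replicate 1 was sequenced with longer reads than replicates 2 and 3. Within replicate 1 the share was 13.6 in SCAF IP and 21.7 in own inputs, and within replicates 2 and 3 it was 12.3 and 28.8.

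The call did not hold in every setting. With inputs paired to the IP of the same replicate, the adjusted p of SMC1A was 0.182 (exact permutation test), in a design whose smallest raw p is 0.03125. With the upper 50 percent of scores it was 0.127, with SCAF IP and input lists overlapping. Without any 1 of the replicates the smallest raw p is 0.0286 and the adjusted p of SMC1A ranged from 0.113 to 0.193, while every SCAF IP list stayed below every input list. As a plain number of clusters, without scaling to the list, SMC1A had 37.5 clusters per SCAF IP list and 21.2 per input list. SMC1A thus took a smaller part of longer lists. Every SCAF IP list, at 18287 clusters or more, was longer than every input list, at 12493 or fewer. IP and list length therefore cannot be told apart here. Within SCAF4 IP, SCAF8 IP, control IP and control input the SMC1A share also fell as lists grew, in control IP from 37.0 at 1621 clusters to 20.8 at 9638. SCAF4 input and SCAF8 input did not keep this order. An effect of list length was not tested.

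By position, the 3′ UTR of SMC1A held 4.00 ± 1.24 clusters per 10000 in SCAF IP and 12.1 ± 2.72 in own inputs (SD, n = 6 each), and the ranges were apart (2.39 to 6.02 and 8.54 to 15.6). Its coding exons held 5.70 ± 1.83 and 10.0 ± 4.05, and its introns 2.80 ± 0.835 and 4.201 ± 2.46, with overlapping ranges in both. Control IP had 20.7 ± 8.04 in coding exons and no cluster in an SMC1A intron in any of 3 lists. These values by position are parts of the SMC1A share and were not tested separately.

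SMC3, the partner SMC subunit of cohesin, had 3.16, 4.41 and 5.30 clusters per 10000 in SCAF4 IP and 3.97, 3.83 and 4.10 in SCAF8 IP. Its inputs were spread more widely, at 2.56, 9.78 and 12.5 in FLAG-SCAF4 cells and 2.19, 3.86 and 4.44 in FLAG-SCAF8 cells. The groups overlapped, and the difference of -1.76 was not called (exact permutation test, adjusted p = 0.609). STAG2, the HEAT-repeat subunit on the X chromosome, had 5.27, 3.31 and 4.71 in SCAF4 IP and 6.35, 4.37 and 4.10 in SCAF8 IP. Own inputs ran from 2.09 to 9.84, around the IP values, and the adjusted p was 0.342 (exact permutation test).

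NIPBL, which loads cohesin onto DNA, had the largest difference above control IP among the members, 3.86 per 10000. Its share was 5.27, 5.15 and 4.42 in SCAF4 IP and 4.76, 2.73 and 2.89 in SCAF8 IP. Control IP held 1 NIPBL cluster in replicate 1 and none in the other two lists, so every SCAF IP list was above every control IP list (means 4.203 and 0.346). Own inputs, at 1.96 to 5.98, overlapped SCAF IP (means 3.60 and 4.203).

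SMC4, an SMC subunit of condensin, had the largest mean SCAF IP share of the condensin members, 6.87 per 10000. It was 6.85, 5.51 and 5.89 per 10000 in SCAF4 IP, and 7.15, 9.30 and 6.51 in SCAF8 IP. The inputs differed between lines, with 4.27, 5.87 and 6.26 in FLAG-SCAF4 cells and 9.84, 12.5 and 9.99 in FLAG-SCAF8 cells. All SCAF8 IP values thus lay below all SCAF8 inputs, while SCAF4 IP overlapped its own inputs. Of the 7000 genes, 542 had all SCAF8 IP lists below all SCAF8 inputs, and 1007 had them above. With 3 lists against 3 the smallest p of the exact permutation test is 0.1, so neither line could give a call alone.

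SMC2, its partner in both condensins, was sparse in all lists. SCAF4 IP held 3, 9 and 7 clusters (1.58, 1.65 and 2.06 per 10000), and SCAF4 input held none in all 3 lists. Pooled, the SCAF4 IP share was 1.28 times the share that 3 clusters would make in the 21622 clusters of those inputs. SCAF8 IP held 0.794, 1.64 and 1.45 and SCAF8 input 1.09, 2.90 and 2.22, which overlapped.

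NCAPD2 and NCAPD3 encode the HEAT-repeat subunits that set condensin I and condensin II apart. NCAPD2 had 7.90, 6.43 and 6.18 in SCAF4 IP, 5.95, 4.92 and 6.26 in SCAF8 IP, and 3.28 to 10.2 in own inputs. NCAPD3 had 3.69, 6.07 and 5.01 in SCAF4 IP, 3.18, 5.47 and 4.58 in SCAF8 IP, and 1.71 to 5.87 in own inputs. Neither gene separated the groups (differences of -0.35 and 1.14, exact permutation test, adjusted p = 0.898 and 0.325).

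SMC5 and SMC6 had among the lowest shares, as did SMC2. SMC5 had 1.05, 2.39 and 1.77 in SCAF4 IP and 0.794, 2.19 and 1.45 in SCAF8 IP. Control IP held no SMC5 cluster in any list. No fold is given, because 3 clusters in the 13573 control IP clusters would make 2.21 per 10000, above the SCAF IP share of 1.72 over pooled lists. SMC6 had 2.63, 1.65 and 2.36 in SCAF4 IP, 1.59, 2.19 and 1.45 in SCAF8 IP, and 2.08, 0 and 0 in control IP. Against own inputs, SMC5 differed by 0.75 and SMC6 by 0.81, and neither was called (exact permutation test, adjusted p = 0.304 and 0.258).

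**Figure D1:**
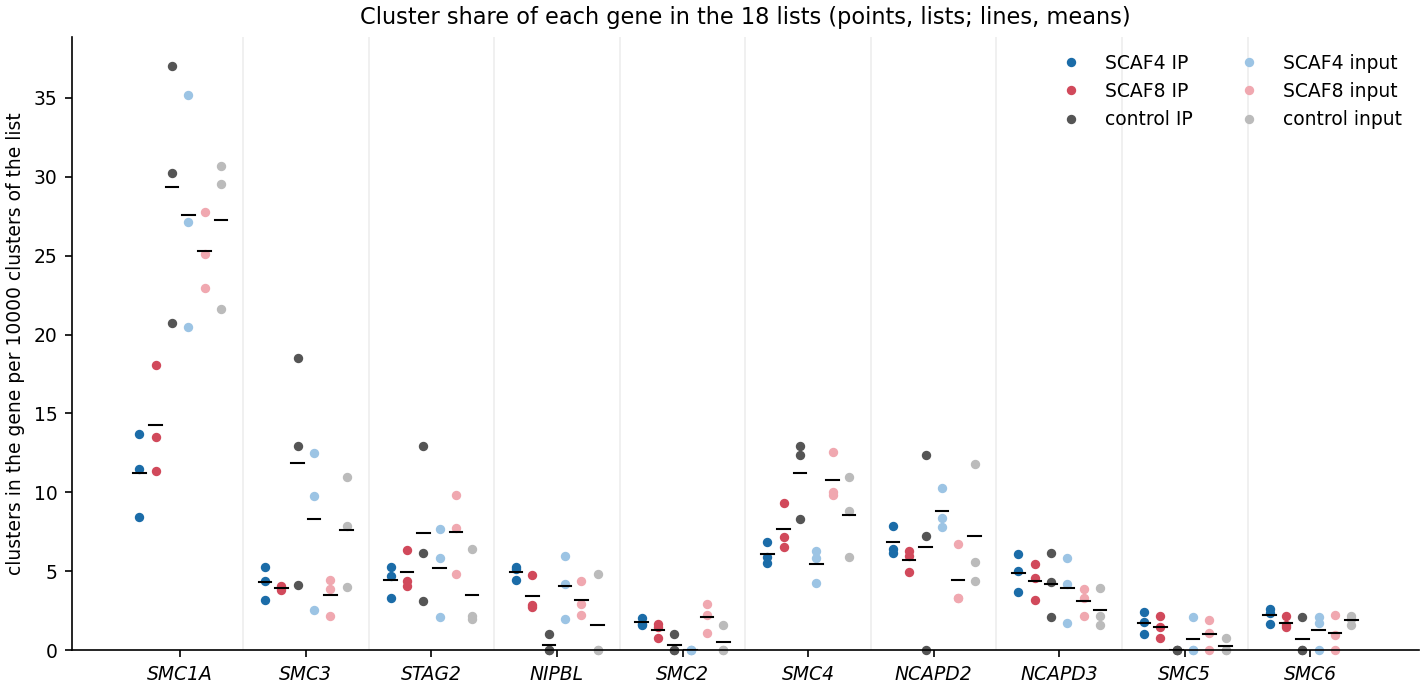
Clusters per 10000 clusters of the list (y axis) for each of the 10 genes in the 18 lists, with 1 point per list coloured by group. SMC1A in the 6 SCAF IP lists lies between 8.46 and 18.05, below every input; the other genes overlap between SCAF IP and their inputs.

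Against own inputs, 5 members were higher and 5 lower, with a median difference of 0.07 per 10000 beside 0.25 over all genes. Against control IP, none of the 7000 genes was called (exact permutation test over 84 splits, smallest adjusted p = 0.0894, and 1699 genes with an unadjusted p under 0.05). Of the members, 7 had an unadjusted p under 0.05, as did 24.3% of all genes. Among these members SMC1A, SMC3 and SMC4 were lower in SCAF IP, and NIPBL, SMC5, SMC2 and SMC6 were higher. NIPBL and SMC5 had all SCAF IP lists above all control IP lists, where 15.7% of all genes did, and SMC1A had them below (12.7 against 29.3), where 3.11% did. The control IP lists are short, and 1 cluster in the smallest of them already makes 6.17 per 10000.

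SCAF4 IP and SCAF8 IP overlapped for each of the 10 genes, while 16.1% of all genes had separate groups in either direction. The means differed by -3.08 for SMC1A, 1.48 for NIPBL, -1.57 for SMC4 and 1.12 for NCAPD2 (SCAF4 IP minus SCAF8 IP), and by less for the others. No gene could be called here, since the smallest p of the exact permutation test is 0.1 with 3 lists a group. No member was thus separated by protein at this number of lists, which does not show that SCAF4 and SCAF8 bound them alike.

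Clusters within these genes were mainly exonic. A midpoint fell in an exon for 69.2% ± 6.74 of the SCAF IP clusters (mean over 6 lists) and for 66.9% ± 6.30 in the 9 inputs. Exons make up between 1.34% (STAG2) and 20.4% (SMC1A) of the gene bodies. The STAG2 value is over an annotated body of 462453 bp, of which the isoform used spans 140951 bp. Over all protein-coding genes the same values were 65.9% ± 4.15 and 58.9% ± 9.02. The members' mean hid differences between genes, since SMC1A supplied 153 of the 299 exonic input clusters. In NIPBL 65.9% of SCAF IP clusters and 9 of 25 input clusters were exonic, in NCAPD2 55.4% and 33.3%, and in NCAPD3 54.3% and 28.6%. SMC5 and SMC6 had 75.8% and 75.0% in SCAF IP, beside 1 of 5 and 3 of 10 input clusters. The inputs of these 5 genes were thus mainly intronic. Part of this came from single sites that recurred between inputs. A region in intron 32 of NCAPD3 and 1 over the small RNA gene SCARNA10 in NCAPD2 were each in all 9 inputs. A region in intron 2 of NCAPD2 was in 8 inputs, and 1 in intron 2 of SMC6 in 7. SMC4 had a lower exonic share in SCAF IP than in inputs, 65.6% against 80.3%, as did SMC1A with 76.9% and 83.6%. In SMC4, 16 of 125 SCAF IP clusters and 1 of 61 input clusters lay outside the chosen isoform and counted as not exonic. By kind of exon, the groups also differed. Coding exons held 57.8% of the members' pooled SCAF IP clusters and 44.5% of the input clusters, and 3′ UTRs held 8.98% and 22.3%. The 3′ UTR clusters came largely from SMC1A, with 70 of 82 in SCAF IP and 86 of 99 in inputs.

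Clusters over the boundary between exon and intron also differed between IP and input. A coding-exon cluster was counted as reaching into an intron when at least 10 of its nucleotides were intronic in the chosen isoform. RNA not yet spliced there gives such clusters, but exons found only in other isoforms also counted as intron. In SCAF4 IP the share reaching into an intron was 34.4%, 43.8% and 52.2% of the members' coding-exon clusters. In SCAF8 IP it was 44.8%, 40% and 44.8%. The 9 inputs gave 5.56% to 25.8%, all below the lowest SCAF IP list. Control IP gave 39.3%, 7.14% and 0%, from 28, 14 and 8 clusters. Over all protein-coding genes SCAF IP ranged from 29.2% to 40.9% and inputs from 14.8% to 27.8%, which is the same order of groups. The members were fixed by name with earlier results known, and this measure was chosen after their clusters had been seen. The values are therefore a description with no test.

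SMC1A gave the highest share, with 68 of 98 SCAF IP coding-exon clusters (69.4%) reaching into an intron beside 15 of 65 in inputs (23.1%). NCAPD2 had 34 of 66 (51.5%) beside 6 of 16, SMC4 38 of 76 (50.0%) beside 10 of 47, and NCAPD3 23 of 48 (47.9%) beside 1 of 6. SMC3 had 21 of 52 beside 1 of 22, and STAG2 19 of 59 beside 1 of 25. The transcript of NIPBL had a lower share, 10 of 51 (19.6%) beside 0 of 8, and SMC2 had 1 of 27 beside 0 of 4. SMC5 had 12 of 24 beside 0 of 1. SMC6 had 8 of 27 (29.6%) beside 1 of 3. For NIPBL, SMC2, NCAPD3, SMC5 and SMC6 the inputs held at most 8 coding-exon clusters, too few to compare by gene. SMC1A, SMC3, STAG2, SMC4 and NCAPD2, with at least 16, were each higher in SCAF IP. Leaving out SMC1A left 36.7% in SCAF IP and 13.5% in inputs, and the lists stayed apart (lowest SCAF IP list 26.7%, highest input 25%).

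The share depends on how a cluster is drawn. When only the central 100 nt of each cluster were used, it was 18.7% in SCAF IP and 5.06% in inputs, and with at least 30 intronic nucleotides 27.9% and 10.1%. The groups remained apart in both (10.9% against 10.0%, and 20.3% against 16.1%, as the lowest SCAF IP and highest input list). Among clusters in the upper 50 percent of scores, where inputs hold fewer clusters, SCAF IP ran from 40% to 66.7% and inputs from 0% to 45.5%, which overlapped. Over all clusters of the members, the median length was 149 nt in SCAF IP and 144 nt in inputs. By list the medians ran from 136 to 152 nt in SCAF IP and from 118 to 162.5 nt in inputs. The length of coding-exon clusters alone was not compared, and an effect of length was not tested.

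**Figure D2:**
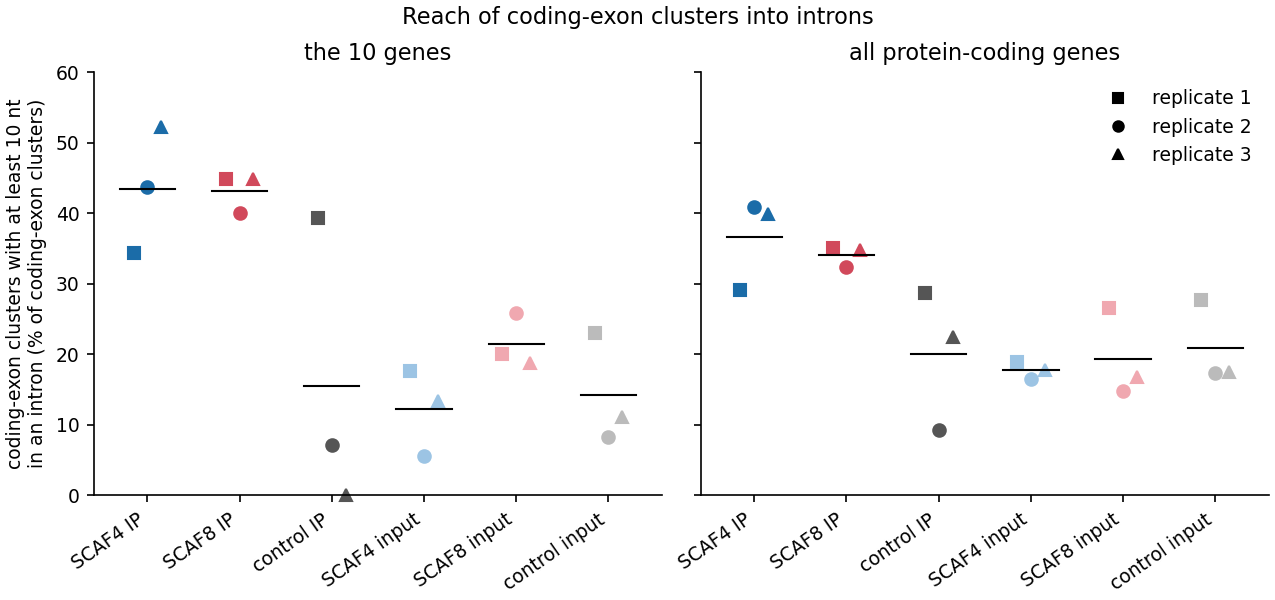
Percent of coding-exon clusters with at least 10 intronic nucleotides (y axis) in each of the 18 lists by group, for the 10 genes and for all protein-coding genes. The 6 SCAF IP lists lie between 34.4% and 52.2% for the members, above the 9 inputs at 5.56% to 25.8%; control IP spreads from 0% to 39.3%.

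Near the gene start the counts were low. The first 1 kb of the gene bodies held 45 of the 913 SCAF IP clusters of the members (4.93%), 6 of the 443 input clusters (1.35%) and none of 80 control IP clusters. Over all protein-coding genes these shares were 7.60% in SCAF IP, 4.85% in inputs and 7.04% in control IP. SMC4, SMC1A and SMC5 supplied 11, 10 and 8 of the 45. In SMC5, the region over exon 1 (chr9:70258980-70259266) was found in all 6 SCAF IP lists and 1 input.

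Regions shared between lists were then followed through a consensus rule modelled on that of the study. It asked for presence in at least 2 of 6 SCAF IP lists, overlap with no more than 1 of 9 inputs, a gene with fewer than 1 input region per 10 kb, and no control IP cluster. Here input clusters that overlapped between lists were merged and counted as 1 region, over the whole gene body with 2 kb on either side. The study's methods speak of input clusters and take the longest isoform as the transcript, so its own set can differ from this one. The 10 genes held 290 merged regions. Of these, 189 were in at least 2 lists, 116 remained after input overlap, 43 after input density and 40 after control IP. This is 13.8% of the merged regions, where 21.0% passed over all protein-coding genes. Without the density step 106 regions remained (36.6%), beside 36.9% over all genes. Input overlap removed 38.6% of the members' regions in at least 2 lists, and 26.6% over all genes, while more of the members' merged regions were in at least 2 lists to begin with (189 of 290 beside 36464 of 66250).

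The density step divided the members, and the division depended on how input was counted. STAG2 kept 9 regions, NIPBL 11, SMC5 10, and SMC2 and SMC6 5 each. SMC1A, SMC3, SMC4, NCAPD2 and NCAPD3 kept none, although 13, 10, 12, 14 and 17 of their regions met all other steps. Their genes held 8.18, 2.83, 5.54, 4.69 and 1.01 input regions per 10 kb. NCAPD3 was just outside the limit with 8 input regions over its 75392 bp gene, and NIPBL just inside with 0.826. STAG2 lay inside (0.386) by the length of its annotated gene body of 462453 bp. Over the 140951 bp of the isoform with the most exon sequence it held 1.24 and would be removed, leaving 31 regions in all. When every input cluster was counted instead of merged regions, NIPBL held 1.29 and SMC2 1.56 clusters per 10 kb and both lost their regions, and 24 remained in STAG2, SMC5 and SMC6. With every cluster over the isoform's span, only the 10 regions of SMC5 remained. Among the members, SMC5 alone kept its regions under all 4 ways of counting. Every member, kept or not, had regions that met all steps other than density.

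**Figure D3:**
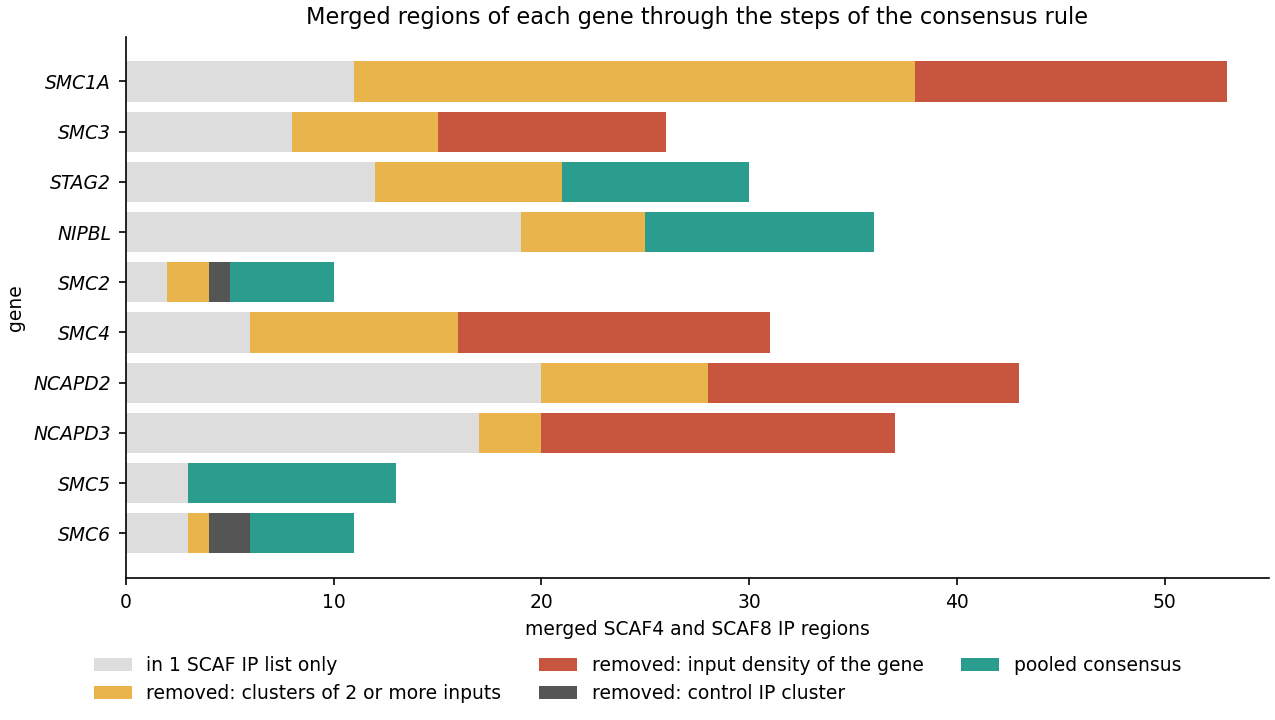
Number of merged SCAF4 and SCAF8 IP regions (x axis) in each gene (y axis), split by the step of the rule that removed them or by passing as pooled consensus. The 40 regions that passed lie in STAG2, NIPBL, SMC2, SMC5 and SMC6; SMC1A, with 53 regions, has none left.

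Presence in more IP lists went with presence in more inputs. Of the 48 member regions found in all 6 SCAF IP lists, 29 were in at least 5 inputs and 1 was in none. That one is exon 11 of SMC6, shown above, which overlapped a control IP cluster. Of the 42 regions in exactly 2 SCAF IP lists, 29 were in no input and none was in 5 or more. Over all genes the median number of inputs also rose, from 0 for regions in 2 lists to 4 for regions in 6, and for the members it rose to 5.5. Regions in at least 5 inputs made up 18.5% of the members' shared regions and 9.30% of those of all genes. Of these 35 regions, 17 lay in SMC1A.

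**Figure D4:**
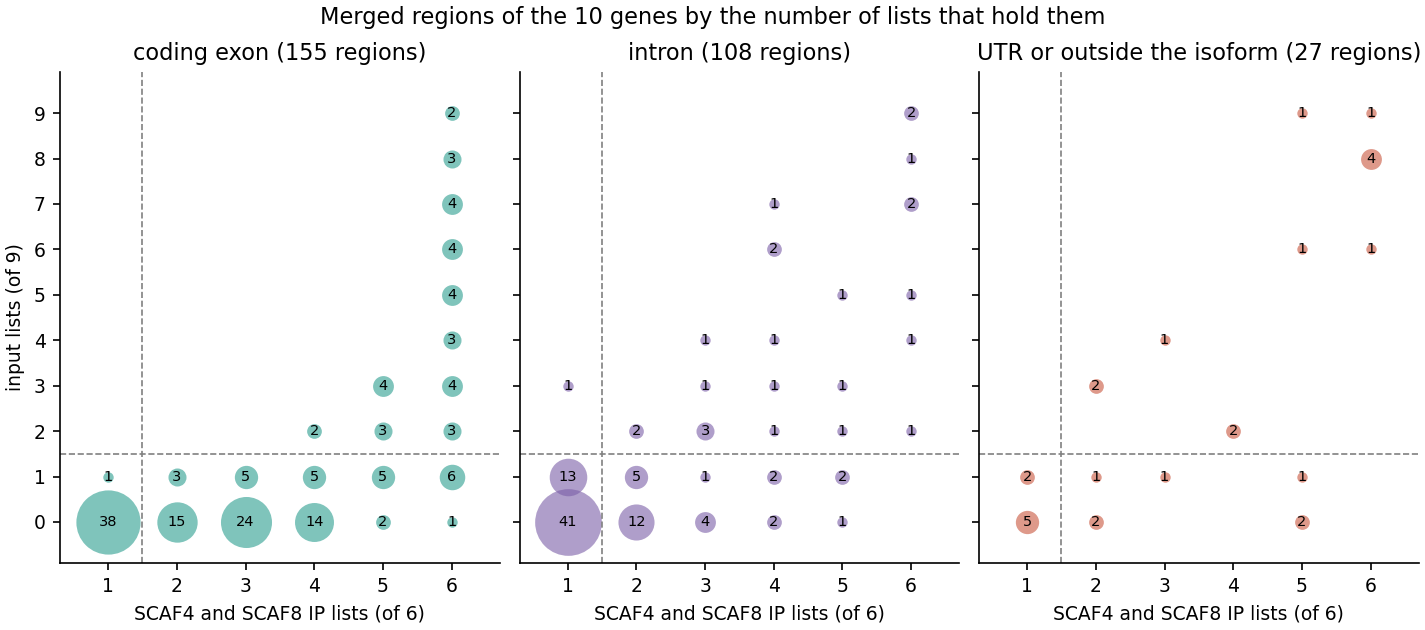
Merged regions of the 10 genes by the number of SCAF IP lists (x axis, of 6) and of input lists (y axis, of 9) that held them, in separate panels for coding exons, introns and all other positions. The number in each circle is the number of regions, and dashed lines mark the limits of at least 2 SCAF IP lists and at most 1 input; regions in all 6 SCAF IP lists reach up to 9 inputs, and those in 2 lists reach no more than 3.

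Of the 189 regions in at least 2 lists, 164 (86.8%) held both SCAF4 and SCAF8 clusters, where all genes had 77.9%. In the members, 21 regions held SCAF4 only and 4 SCAF8 only. SCAF4 IP lists were longer in all, with 107357 clusters beside 84978. Among regions in at least 3 lists, 6 of 147 belonged to 1 protein, and over all genes 4.79% did. The SCAF4-only regions were exons 11 and 33 of NCAPD3, exon 6 of NCAPD2, and exon 12 and intron 1 of NIPBL. The SCAF8-only region lay in intron 16 of SMC1A and was also in 4 inputs.

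The 40 regions kept with merged input regions lay mostly in coding exons. All 5 of SMC2 were coding, as were 7 of 9 in STAG2, 8 of 11 in NIPBL, 7 of 10 in SMC5 and 4 of 5 in SMC6. Those of SMC2 were spread from exon 6 to exon 21, and those of SMC5 from exon 1 to exon 20. The 106 regions left without the density step comprised 71 coding-exon and 28 intronic regions, and coding exons made up 66.98%, beside 52.5% over all genes. SMC1A had the fewest coding regions among these, 3 of 13.

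**Figure D5:**
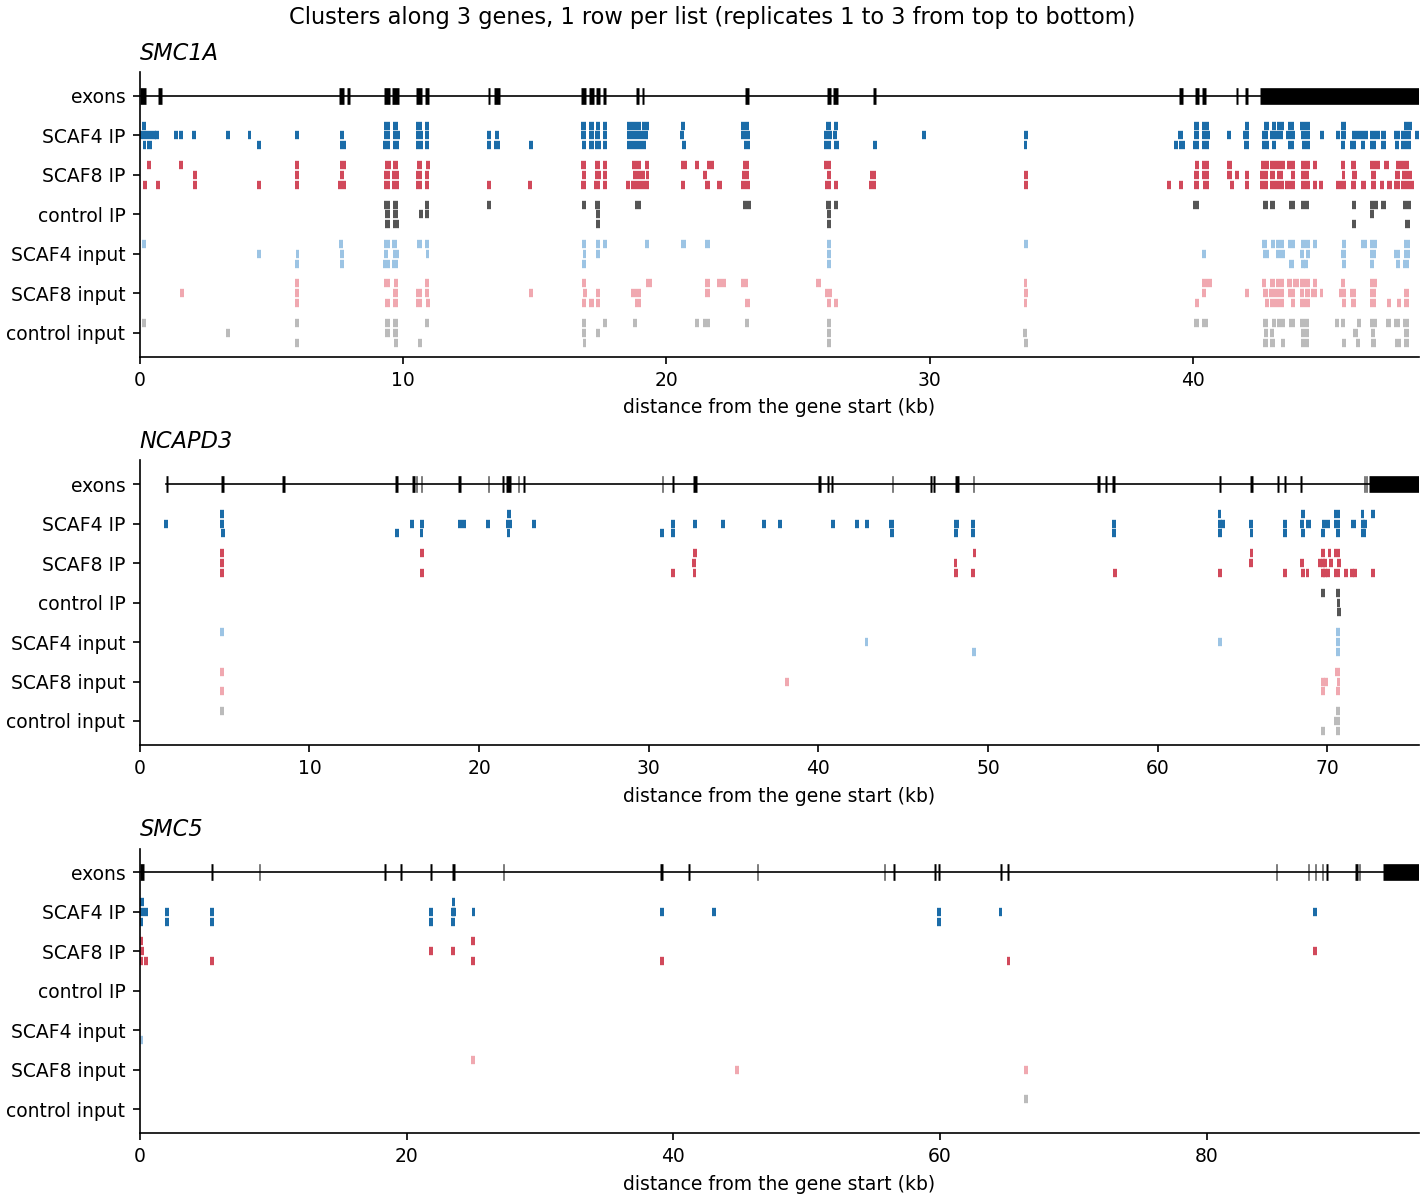
Clusters along SMC1A, NCAPD3 and SMC5, against distance from the gene start in kb (x axis), with exons of the chosen isoform as black boxes and 3 rows of clusters per group, 1 for each replicate. Short clusters are drawn wider than their length so that they can be seen. SMC1A has input clusters along the gene and over the long last exon, NCAPD3 has them repeatedly in intron 32 near its 3′ end and at exon 2, and SMC5 has no control IP cluster and 5 input clusters.

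In a window of 100 nt at the centre of each of the 106 regions, the letters CGG or CGA occurred in 69.8%, beside 69.9% of the 24428 such regions over all genes. The letters CCAGC or alternatively CCAGG, taken with the related letters GCAGC or alternatively GCAGG, occurred in 47.2% beside 45.9%, and CTCC or CACC in 46.2% beside 50.5%. Only the transcribed strand was searched, and overlaps between these motifs were allowed. AATAAA or ATTAAA, the letters of polyadenylation signals, occurred in 11.3% (12 regions) beside 4.93%. The members' windows were less rich in G and C, with a median of 44% beside 50%. These are matches of letters in a window, not sites.

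Other genes inside the members' introns touched a few values. SCARNA10, a small RNA of Cajal bodies in intron 4 of NCAPD2 (chr12:6510222-6510551), held 17 clusters, and these came from all 6 SCAF IP lists, all 9 inputs and 1 control IP list. KRT18P31, a keratin pseudogene in intron 1 of NIPBL (chr5:36885206-36886497), held 13 clusters in all 6 SCAF IP lists and 2 inputs, and it contains the only NIPBL region present in all 6 SCAF IP lists. A pseudogene resembles its parent gene, and the 2 sequences were not compared here, so this count is uncertain. The 3 stretches of 30 nt sampled there each occurred once in the genome. The microRNA genes MIR15B and MIR16-2 in SMC4 held no cluster in any list. MIR6857, a microRNA gene in SMC1A, was overlapped by 7 clusters, from all 6 SCAF IP lists and 1 input. None of these had its midpoint inside MIR6857.

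A list of 32 further genes held other subunits and regulators of these complexes and relatives such as RAD50, SMCHD1 and CTCF, and 24 passed the minimum of 5 clusters. ESPL1, which encodes separase, the protease that opens cohesin at anaphase, was the only one called against own inputs. Its share was 4.92 per 10000 in SCAF IP and 0.161 in own inputs (exact permutation test, adjusted p = 0.0257), with SCAF IP lists at 2.73 to 7.36 and inputs at 0 to 0.965. Like that of SMC1A, the call was lost with the replicate block, with the upper 50 percent of scores and without any 1 replicate, where no gene was called. Control IP lists, with a mean of 1.38, overlapped SCAF IP. It kept 18 pooled consensus regions, more than any member. RAD50, a related ATPase of DNA break repair, kept 10, the condensin subunit NCAPH 7, the X-inactivation factor SMCHD1 6, and STAG1, the paralog of STAG2, 5. NSMCE4A of the SMC5/6 complex also kept 5, the cohesin subunit RAD21 4, the release factor WAPL 3, the deacetylase HDAC8 3, CTCF 3, PDS5A 2 and SLF2 1. Among the further genes with a consensus region or a call, these 12 held the most SCAF IP clusters. SLF1 of the SMC5/6 pathway fell just below them and, named here after its values were seen, kept 6 regions with no input cluster. NCAPG2, NCAPG and NCAPH2 held 128, 72 and 46 SCAF IP clusters but kept no consensus region, so they were not eligible. In 17 of the 24 tested genes the share was higher in SCAF IP than in own inputs, as it was in 68.5% of all genes.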

How the data were processed

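PAR-CLIP lists were available for 18 combinations of line, fraction type (IP or input) and replicate. Per the labels and the study's methods, the authors trimmed reads (Trim Galore, cutadapt), aligned them to GRCh38 with Bowtie2 2.2.9, removed duplicates with Picard, joined soluble and chromatin reads and called clusters with PARalyzer. The deposited score of each cluster (0.501 to 1) has no stated unit, and served here solely for ordering the clusters of 1 list. Thresholds on reads and T-to-C changes were applied by the authors before deposit, so a weakly bound stretch is not listed, and longer lists can hold more weak stretches.

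Clusters were assigned by midpoint and strand to GENCODE release 44 genes. Features came from the protein-coding isoform with the largest summed exon length. Shares were compared by two-sided exact permutation tests over lists and adjusted by the Benjamini-Hochberg procedure over all 7000 genes with at least 5 clusters (Python 3.11.15, scipy 1.17.1), after the script was tested on simulated data. Intervals of a list's share are exact binomial at 95%, cover counting error only, and are not printed where replicate lists give the spread. Members, the list of 32 further genes and all rules were chosen with earlier results of these data known. All 10 members are described, up to 3 regions each were eligible to be named by number of lists, and of the further genes at most 12 with a consensus region or a call. The methods take each input from the extract of its IP, so replicate numbers pair lists. Deviations from group means correlated at 0.0695 to 0.257 for IP and input of the same number (median 0.113). For different numbers they correlated at -0.193 to 0.0998. Of these, pairs of replicates 2 and 3 gave 0.0503 to 0.0998, and every pair with replicate 1 was negative. Whether the read length of replicate 1 gave this order was not tested. Alternatives were other scalings, score and cluster minimums, isoforms, overlap rules, the replicate block and leaving out each replicate.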

Additional observations from a re-analysis of the deposited data

Results flagged for a closer look

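SMC2 moved in opposite directions in the 2 tagged lines. In FLAG-SCAF4 cells the IP share was above the input of the same replicate in all 3 replicates, and in FLAG-SCAF8 cells it was below in all 3. The mean IP minus input difference was 2.54 clusters per 10000 higher with SCAF4 than with SCAF8. The difference was not tested, and how many of all genes show this pattern was not counted. All SCAF4 IP lists lay above all SCAF4 inputs in 2001 of 7000 genes, SMC2 among them. The SMC2 counts are small, with 0 clusters in each SCAF4 input and 1, 3 and 2 in the SCAF8 inputs. In the SCAF4 inputs, 3 clusters would already make 2.56 to 6.26 per 10000.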

How the results depend on the processing

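Of the members, 1 (SMC1A) was called against own inputs, and this count was also 1 with covered nucleotides in place of clusters, without nested small RNA genes and with no minimum of clusters (590 of 9830 genes called). It was 0 with the upper 50 percent of scores, where no gene of 5320 was called, and 0 with the replicate block, where none of 7000 genes was called. Without replicate 1, 2 or 3 it was 0 each time, with a smallest raw p of 0.0286 in exact permutation tests. With no scaling to the length of the list, all 10 members and 3083 of 7000 genes were called, all higher, and the IP minus input difference turned to 16.3 clusters for SMC1A, 9.67 for SMC3, 8.5 for STAG2, 13.8 for SMC4 and 14.7 for NCAPD2. Leaving scaling aside, the uncalled differences changed sign in 4 of 70 values against own inputs, 5 of 60 against control IP and 7 of 60 between SCAF4 and SCAF8, and no member was called in the last 2 comparisons under any alternative. The 40 consensus regions became 23 with at least 3 of 6 lists, 106 without the density step, 24 with every input cluster counted and 10 with every input cluster over the isoform's span, and ranged from 38 to 47 without 1 replicate. The excess of clusters reaching into introns, 27.4 percentage points, was 13.7 for the central 100 nt and 17.8 with at least 30 intronic nucleotides, and 24.0 to 31.4 without 1 replicate; these alternatives were chosen after seeing the data, as were those on counting input density (31 regions over the isoform's span with merged input). The exonic share stayed between 66.7% and 71.1%. The cause of these changes was not tested, except that fewer lists raise the smallest p. Control IP lists, at 1621 to 9638 clusters, limit that comparison.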
